A study of Mus musculus with 15 samples.

Results

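The experiment described here is the response of ELL2 knockout B cells to culture with lipopolysaccharide (LPS). It takes in 7 of the 15 arrays of the series, chosen by their titles: 3 of stimulated and 4 of unstimulated ELL2 cko cells. All mice were of the C57BL/6 strain, and B cells were purified from each spleen on magnetic (MACS) columns. The unstimulated ELL2 cko cells were lysed directly after purification, and the stimulated ELL2 cko cells after 72 hours in medium with LPS. Both groups carry the conditional knockout, written ELL2 -/- cko in the labels, which name neither the Cre line that drives it nor the deleted exon nor the age of the mice. The other 8 arrays are of wild-type (WT) cells, 4 for each treatment, and serve only to show where the knockout response differs. No culture without LPS was among the samples, so LPS and 72 hours of culture cannot be told apart.

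LPS, a component of the bacterial cell wall, is read by B cells through Toll-like receptor 4, and it makes mouse splenic B cells divide and turn into short-lived antibody-secreting cells. In that change the transcription factor Blimp-1 (gene Prdm1) shuts down the program of the resting B cell, while XBP1 and the unfolded protein response enlarge the endoplasmic reticulum (ER) in which antibody is folded. ELL2 is an elongation factor of RNA polymerase II that accumulates in antibody-secreting cells and favours the secreted form of the immunoglobulin heavy chain mRNA.

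The arrays read single exon regions and junctions between exons. The level of a gene is the median log2 value of its exon regions, so 1 unit is a doubling on the transformed scale of the software, which stretches folds. A change is the mean with LPS minus the mean without, given with its standard error (SE) from a limma model over all 15 arrays unless stated. A gene was called where the adjusted p (Benjamini-Hochberg over 31350 genes) was under 0.05. The median gene had a level of 5.12, and values near it were not shown to be above background. Cells were isolated mouse by mouse per the labels, so the p-values rest on variation between mice within groups. That variation is pooled over the knockout and WT groups, so an SE is not the spread of the knockout arrays alone.

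The 4 unstimulated arrays were not alike in the cells they held. Replicates 1 and 2 had mean levels of 10.71 and 10.20 over 15 T cell markers, against 4.77 and 4.83 in replicates 3 and 4. Neutrophil markers lay at 10.25 and 9.85 against 4.34 and 4.25, monocyte and macrophage markers at 9.21 and 9.26 against 5.87 and 6.51, and NK cell markers at 8.19 and 7.98 against 4.72 and 4.82. B cell markers were high in all 7 arrays but ran the other way, at 13.69 and 13.67 against 15.38 and 15.33. Platelet markers did too, at 4.96 and 4.65 against 6.02 and 6.34. Counts per list and most changes of single genes are therefore given against all 4 unstimulated arrays and, second, against replicates 3 and 4 alone. The second comparison is a separate fit without unstimulated knockout replicates 1 and 2, so its SE rests on another estimate of the spread. The LPS arrays differed as well: T cell markers averaged 4.85 in LPS replicate 1 but 6.44 and 6.66 in LPS replicates 2 and 3, and monocyte and macrophage markers 6.09 against 6.86 and 6.84. A further comparison leaves out the 4 arrays with raised T cell markers and sets LPS replicate 1 alone against unstimulated replicates 3 and 4. With 1 LPS array its spread is estimated from the other groups, and the lone array is assumed to vary as they do. By the level of Xist, which females express from the inactive X chromosome, unstimulated replicate 3 (5.28) was male and the other 6 arrays female (16.51 to 17.16). In such bulk RNA, fewer cells of a type and less RNA per cell cannot be told apart.

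**Figure D1:**
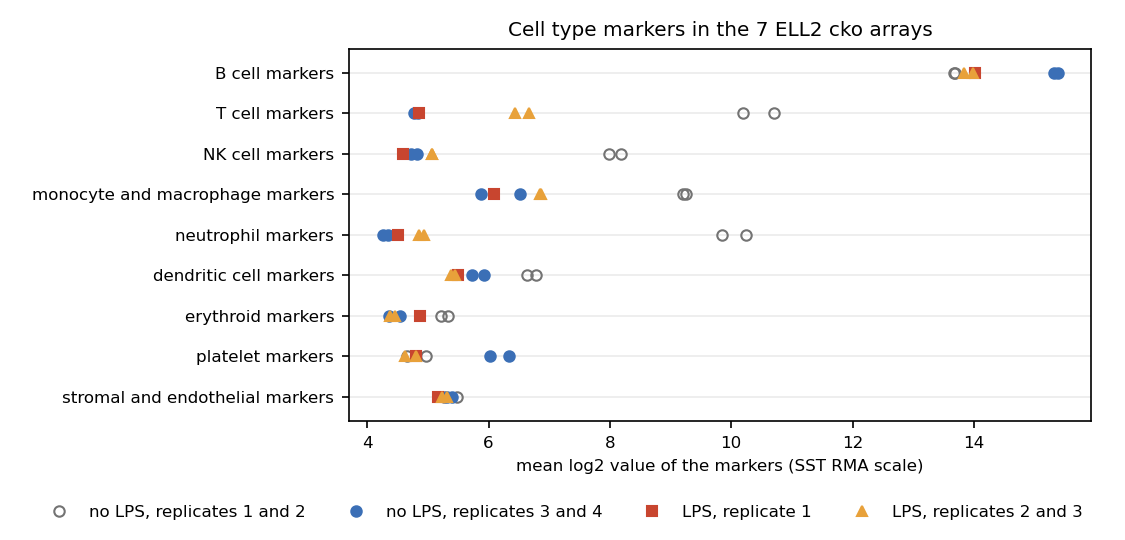
Mean log2 level of 9 lists of cell type markers (rows) in the 7 ELL2 cko arrays. Open grey points are unstimulated replicates 1 and 2, blue points replicates 3 and 4, the red square LPS replicate 1 and orange triangles LPS replicates 2 and 3; the T cell mean spans 4.77 to 10.71 among the unstimulated arrays.

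Against all 4 unstimulated arrays, 1993 genes were called higher after LPS (6.36% of the 31350 tested) and 1251 lower (3.99%). Against replicates 3 and 4 alone, 1702 were called higher (5.43%) and 1455 lower (4.64%). In all, 1297 genes were higher on both baselines (4.14%) and 797 lower (2.54%), which is 64.5% of the first set of calls and 66.3% of the second. No gene was called in opposite directions. A further 696 higher and 454 lower calls were made only against all 4 arrays, and 405 and 658 only against replicates 3 and 4. The median gene moved by 0.04 and 0.06. The split between higher and lower calls depended on scaling for the second baseline: with every array centred on its median, 1346 genes were higher and 1773 lower, against 1702 and 1455 as deposited. With LPS replicate 1 alone against replicates 3 and 4, and the spread taken from the other groups, 775 were called higher and 531 lower. The number of calls also rested on single arrays. Against all 4 unstimulated arrays 3244 genes were called, and 1943 or 1930 without LPS replicate 2 or 3. Against replicates 3 and 4, 3157 fell to 1009 without replicate 3, to 818 without replicate 4, and to 1977 and 2011 without LPS replicate 2 and 3.

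The largest rises called on both baselines without overlap between the groups, ranked by the change against replicates 3 and 4, were led by Saa3, an acute phase protein, Zbtb32, a zinc finger repressor of activated B cells, and Slpi, a secreted protease inhibitor. Zbtb32 had levels of 6.48, 6.09, 5.89 and 5.81 in unstimulated replicates 1 to 4 and of 14.60, 12.95 and 12.85 with LPS. The level of Slpi was 11.72, 11.36, 7.24 and 7.67 without LPS and 14.95, 14.51 and 14.57 with it. By the rule of choice, both genes lay higher in every LPS array. Unstimulated Slpi split with the baseline. Its change was 5.19 ± 0.89 (adjusted p = 0.00184) against all 4 arrays and 7.23 ± 0.40 (4.68e-06) against replicates 3 and 4. Tigit, an inhibitory receptor known best from T and NK cells, read 6.31, 7.03, 5.40 and 5.61 without LPS and 9.32, 11.77 and 12.40 with it (5.08 ± 0.57, adjusted p = 8.76e-05; 5.66 ± 0.65, 0.000243). Its lowest LPS value was in replicate 1, the LPS array with the lowest T cell marker mean. In WT cells the mean of Tigit went from 5.51 to 10.80 with LPS, where T cell markers averaged 4.86 to 4.96. The part of T cells in the knockout rise was not tested. Flt3, a receptor tyrosine kinase of progenitors and dendritic cells, rose from 6.62, 6.63, 6.69 and 7.05 to 11.90, 10.50 and 10.49 (4.22 ± 0.79, adjusted p = 0.00344; 4.10 ± 1.00, 0.0219), while the mean of the dendritic cell markers was lower with LPS (5.38 to 5.50) than without (5.72 to 6.78). Against replicates 3 and 4 the Flt3 call was lost without either of them (highest adjusted p = 0.147).

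Falls, ranked in the same way, were led by Icosl, which encodes the partner of the T cell receptor ICOS, with levels of 10.66, 10.55, 12.16 and 12.81 without LPS and 6.32, 7.03 and 6.49 with it. The change was -4.93 ± 0.49 (adjusted p = 2.81e-05) against all 4 arrays and -5.87 ± 0.38 (9.2e-06) against replicates 3 and 4. Xkrx, a membrane protein of the XK family, lay at 8.27, 8.34, 9.91 and 10.17 and then at 4.58, 5.54 and 5.45, and Cacna1i, a subunit of a T-type calcium channel, at 8.20, 9.15, 11.87 and 10.76 and then at 6.89, 6.18 and 6.67. Genes were chosen here for groups that did not overlap. Over all 31350 genes, 3829 lay above and 2287 below without overlap. In Icosl, Xkrx and Cacna1i, replicates 3 and 4, with more B cell marker signal, were the higher unstimulated arrays. Plaur, the urokinase receptor, was even without LPS (12.14, 12, 11.70 and 11.79) and fell to 6.37 in LPS replicate 1 and to 8.47 and 9.23 in LPS replicates 2 and 3 (-3.89 ± 0.50, adjusted p = 0.000212; -3.72 ± 0.62, 0.00291). Clec9a, a receptor of cross-presenting dendritic cells, fell from 6.95, 6.21, 7.15 and 8.53 to 4.14, 4.00 and 4.16, below the median gene. Il9r, the interleukin-9 receptor, was called lower on both baselines (-3.54 and -4.20), but without LPS replicate 2 it was not called against all 4 arrays (adjusted p = 0.0559), nor against replicates 3 and 4 without replicate 4 or LPS replicate 2 (up to 0.233).

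**Figure D2:**
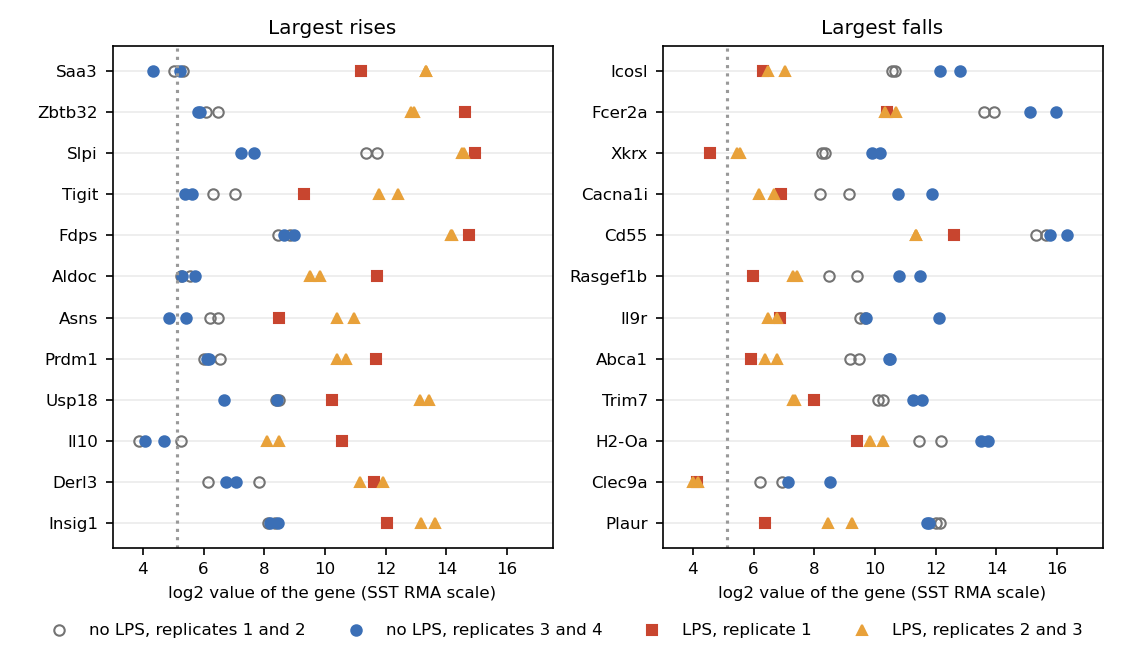
Log2 levels of the 12 largest rises and 12 largest falls in each ELL2 cko array. Open grey points are unstimulated replicates 1 and 2, and blue points 3 and 4. The red square is LPS replicate 1, and orange triangles are LPS replicates 2 and 3. The dotted line is the median gene at 5.12. Genes were chosen so that the LPS arrays lie beyond all unstimulated ones.

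Genes of the antibody-secreting cell rose as a group. Of 31 measured, 19 were called higher against all 4 unstimulated arrays, 18 against replicates 3 and 4, 16 on both and 0 lower on either, with median changes of 1.88 and 1.59. With LPS replicate 1 alone 12 were called higher. Xbp1 had levels of 9.92, 10.27, 10.47 and 10.41 without LPS and of 14.48, 14.13 and 14.41 with it. Prdm1 lay at 6.02, 6.55, 6.12 and 6.17 and then at 11.67, 10.41 and 10.70. The arrays of a group were close together in both genes and the groups lay far apart. Prdm1 is also among the largest rises, which were chosen for groups without overlap. The changes of Xbp1 were 4.07 ± 0.27 (adjusted p = 6.22e-06) and 3.90 ± 0.33 (3.3e-05), and those of Prdm1 4.71 ± 0.34 (6.22e-06) and 4.78 ± 0.42 (4.51e-05). Mzb1, an ER protein that helps IgM assembly, had 10.84, 10.28, 11.44 and 12.11 without LPS and 15.56, 15.34 and 15.66 with it. Fkbp11, an ER prolyl isomerase of secretory cells, rose from 6.01, 5.98, 5.35 and 5.77 to 9.53, 9.43 and 9.49. Irf4, a transcription factor needed for plasma cells, rose by 2.60 ± 0.33 (adjusted p = 0.000198) and 2.23 ± 0.36 (0.00248), and by 2.05 with LPS replicate 1 alone, which was not called (adjusted p = 0.0561). Sdc1, which encodes the plasma cell surface marker CD138, was not called: its levels were 6.18, 6.53, 6.07 and 6.17 without LPS and 6.32, 6.55 and 6.03 with it, so the groups overlapped. Ly6k, a small surface protein, was called higher only against replicates 3 and 4, and its level in LPS replicate 1 (6.96) lay below that in unstimulated replicates 1 and 2 (9.60 and 9.98). The Ly6k call was lost with 1 of several arrays left out (adjusted p up to 0.145).

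Immunoglobulin genes were less uniform. Ighg3, the IgG3 heavy chain to which LPS makes mouse B cells switch, rose from 12.18, 12.20, 11.07 and 11.70 to 15.26, 15.36 and 15.53 (3.59 ± 0.53, adjusted p = 0.000596; 4.00 ± 0.64, 0.00223). Ighg2b had 13.95, 13.37, 14.44 and 14.42 without LPS and 18.17, 15.33 and 15.46 with it, so LPS replicate 1 stood well above the other two and the change was not called (2.28 ± 0.75, adjusted p = 0.0705; 1.89 ± 0.92, 0.238). Jchain, the joining chain of polymeric IgM, showed the same order: 15.04, 14.83, 13.43 and 13.23 without LPS, 17.87 in LPS replicate 1 and 15.75 and 15.57 in replicates 2 and 3 (2.26 ± 0.95, adjusted p = 0.165; 3.07 ± 1.13, 0.113). Ighd, the IgD heavy chain of the naive B cell, had 10.84, 11.40, 14.25 and 13.65 and then 10.11, 10.44 and 9.76. It was called lower only against replicates 3 and 4 (-3.84 ± 0.92, adjusted p = 0.0194), and that call was lost without either of them (up to 0.15).

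Among 39 genes of the unfolded protein response, 24 were called higher and 2 lower against all 4 arrays, 17 and 2 against replicates 3 and 4, and 15 and 2 on both (medians 1.42 and 1.34). LPS replicate 1 alone gave 10 higher and 1 lower. Creld2, an ER stress chaperone, read 10.47, 9.94, 10.09 and 10.54 without LPS and 14.24, 13.88 and 13.82 with it (3.72 ± 0.34, adjusted p = 1.77e-05; 3.66 ± 0.42, 0.000261). Derl3, a channel component of ER-associated degradation, rose from 6.14, 7.82, 6.75 and 7.07 to 11.62, 11.16 and 11.92 (4.62 ± 0.37, adjusted p = 7.88e-06; 4.65 ± 0.36, 1.96e-05). In both genes the LPS arrays lay far above every unstimulated one, though Derl3 is among the largest rises chosen for groups without overlap. The chaperone Hsp90b1 (GRP94) rose by 1.93 and 2.00, and the secreted neurotrophic factor Manf by 1.96 and 1.72. Hspa5, the master chaperone BiP, was called only against all 4 arrays (1.53, adjusted p = 0.0294; 1.20, 0.154). The 2 members that fell on both baselines were Crebzf, a leucine zipper factor (-0.89 and -1.25), and Nucb2, a calcium-binding protein (-1.20 and -1.35). Asns, the asparagine synthetase that ATF4 induces, read 6.48, 6.22, 5.43 and 4.86 without LPS and 8.48, 10.97 and 10.40 with it, and so rose less in LPS replicate 1.

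The promoter motif that the ATF6 branch of this response reads is the ER stress element, CCAAT, 9 bases of any kind, then CCACG. Both strands of the RefSeq promoter windows (GRCm38.p6; 250 bases before to 50 after the start of each gene) were searched. It stood in 9 of the 35 list genes with a window (25.7%), against 37 of all 27025 genes with one (0.137%). The 9 were Hspa5, Hsp90b1, Dnajc3, Creld2, Pdia6, Calr, Canx, Syvn1 and Derl3. All but Syvn1, a ubiquitin ligase of ER-associated degradation (0.42 and -1.03), were called higher on at least 1 baseline. Only Hsp90b1, Creld2 and Derl3 were called higher on both, as were 15 of the 39 genes of the whole list. The core of the XBP1 site, TGACGTGG, was in 0 of these 35 windows but in 4 of 42 genes of ER export (9.52%) and 3 of 24 of antibody secretion (12.5%), against 193 of all genes (0.714%). Promoters of 3 of the genes just described are shown because they hold the element, which is in capitals. In Derl3 and Creld2 it reads on the strand opposite to the gene, and Hsp90b1 holds 1 match on each strand.
Derl3, chr10:75893192-75893310, plus strand: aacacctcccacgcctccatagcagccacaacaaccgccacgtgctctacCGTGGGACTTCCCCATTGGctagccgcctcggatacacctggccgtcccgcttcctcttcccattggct
Creld2, chr15:88819470-88819588, plus strand: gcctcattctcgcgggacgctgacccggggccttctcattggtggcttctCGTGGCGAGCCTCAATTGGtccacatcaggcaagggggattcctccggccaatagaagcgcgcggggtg
Hsp90b1, chr10:86705483-86705694, minus strand: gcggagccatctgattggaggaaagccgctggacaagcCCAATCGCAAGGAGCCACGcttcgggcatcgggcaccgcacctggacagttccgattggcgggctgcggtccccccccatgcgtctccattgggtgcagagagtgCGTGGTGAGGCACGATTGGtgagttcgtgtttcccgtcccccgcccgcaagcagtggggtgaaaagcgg
These matches describe the sequence and are not evidence of binding in these cells.

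The machinery that brings proteins into and out of the ER rose in part. Of 53 genes of translocation, glycosylation and export, 16 were called higher against all 4 arrays, 11 against replicates 3 and 4 and 10 on both, with 0 lower and medians of 0.81 and 0.65. LPS replicate 1 alone gave 1 call. Sec24d, a coat protein of ER exit vesicles, read 5.59, 5.54, 5.13 and 5.05 without LPS and 7.88, 8.26 and 8.19 with it (2.78 ± 0.51, adjusted p = 0.00273; 3.02 ± 0.63, 0.00969), a call lost against replicates 3 and 4 without either (up to 0.0907). Ssr3, of the translocon-associated complex, rose from 10.53, 10.04, 9.27 and 9.43 to 12.35, 12.08 and 12.37. Rpn1, a subunit of the oligosaccharyltransferase that adds N-glycans, rose from 9.68, 10.04, 9.74 and 9.57 to 11.71, 12.07 and 12.39. In these genes the groups were apart on every array, and LPS replicate 1 lay with the other LPS arrays. Not called on either baseline were Sec61a1 (0.96 and 0.65) and Sec61b (0.80 and 0.49), subunits of the translocation channel, and the retrieval receptor Kdelr2 (1.47 and 0.86).

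Genes of cholesterol synthesis had the highest median change of the 40 lists against all 4 unstimulated arrays. Of 26 measured genes of the pathway and its control, 17 were called higher and 3 lower against all 4 arrays, 13 and 4 against replicates 3 and 4, and 13 and 3 on both. The medians were 2.10 and 1.58, and LPS replicate 1 alone gave 7 higher and 3 lower. Following the pathway from its start, Hmgcs1, which makes HMG-CoA, rose from 7.29, 8.41, 8.70 and 8.90 to 12.39, 12.33 and 12 (3.91, adjusted p = 0.000225; 3.44, 0.00233). Idi1, which isomerises the first isoprenoid unit, rose from 5.62, 5.85, 6.67 and 6.86 to 9.88, 10.21 and 10.43. Fdps, which joins these units into farnesyl diphosphate, rose from 8.46, 8.86, 8.97 and 8.66 to 14.76, 14.18 and 14.17 (5.63 ± 0.34, adjusted p = 3.15e-06; 5.56 ± 0.42, 1.74e-05). In these 3 enzymes every LPS array lay well above all unstimulated ones, in Fdps by the rule of choice. Sqle, squalene epoxidase, followed with 7.25, 8.04, 8.32 and 8.20 without LPS and 12.17, 12.41 and 12.34 with it (4.35 ± 0.37, adjusted p = 1.06e-05; 4.05 ± 0.42, 0.000129). Cyp51, the demethylase of lanosterol, had 6.63, 6.96, 7.41 and 6.92 and then 10.05, 10.79 and 10.72. The later enzymes Nsdhl (2.59 and 2.33), Hsd17b7 (2.97 and 2.54), Sc5d (2.39 and 2.35) and Dhcr7 (1.87 and 1.58) also rose on both baselines. Ebp, the sterol isomerase between them, was lower against replicates 3 and 4 (-0.75, adjusted p = 0.13; -1.18, 0.0139).

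The regulators of the pathway did not all move with its enzymes. Insig1, which holds the SREBP activation complex in the ER and is itself an SREBP target, rose from 8.11, 8.37, 8.19 and 8.45 to 12.03, 13.18 and 13.63 (4.67 ± 0.57, adjusted p = 0.000158; 4.63 ± 0.72, 0.00192). Srebf2, the SREBP of cholesterol genes, had 10.60, 11.00, 12.41 and 12.15 without LPS and 13.51, 12.84 and 13.18 with it. It was called only against all 4 arrays (1.63, adjusted p = 0.0179; 0.90, 0.11), since replicates 1 and 2 lay below 3 and 4. Its homologue Srebf1, the escort protein Scap and Insig2 were not called. The 3 genes of the list that fell on both baselines act against sterol accumulation: Abca1 and Abcg1 export cholesterol, and Mylip (IDOL) is a ubiquitin ligase that limits its uptake. Abca1 fell from 9.46, 9.17, 10.50 and 10.47 to 5.93, 6.37 and 6.78 (-3.54 ± 0.30, adjusted p = 1.06e-05; -4.12 ± 0.23, 4.68e-06). Abcg1 fell from 8.49, 8.66, 9.93 and 9.70 to 6.38, 6.63 and 6.54, and Mylip from 14.43, 13.91, 15.12 and 14.58 to 11.65, 12.26 and 12.23. Abca1 and Abcg1 are known targets of the liver X receptors. The groups of arrays did not overlap in any of the 3, in Abca1 by the rule of choice.

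**Figure D3:**
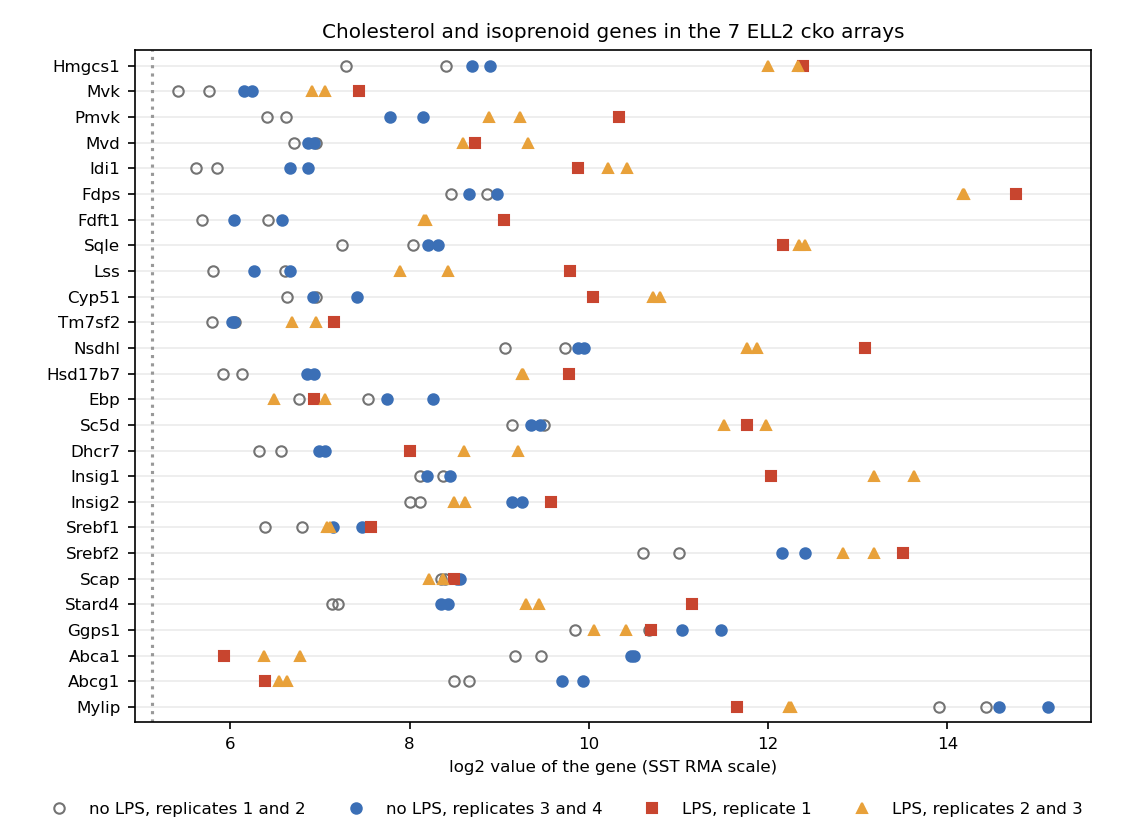
Log2 levels of the 26 cholesterol genes in each ELL2 cko array, with the same symbols as in the plot of the largest changes. Synthesis enzymes such as Fdps (14.17 to 14.76 with LPS) lie to the right of their unstimulated values, and Abca1, Abcg1 and Mylip to the left.

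The sterol element TCACNCCAC, one form of the SREBP site, was in 1 of the 21 list genes with a promoter window (4.76%), against 388 of all genes (1.44%). That gene was Hmgcs1, shown with the match in capitals.
Hmgcs1, chr13:119690164-119690272, plus strand: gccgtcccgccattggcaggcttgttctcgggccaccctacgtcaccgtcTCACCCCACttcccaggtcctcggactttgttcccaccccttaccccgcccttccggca

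Desaturases led the rises among genes of fatty acid synthesis. Of 18 genes, 11 were called higher against all 4 arrays and 8 against replicates 3 and 4, the 8 being called on both; 0 were lower, and the medians were 1.19 and 0.89. LPS replicate 1 alone gave 5. Scd2, the stearoyl-CoA desaturase of most tissues outside the liver, rose from 12.02, 11.96, 13.30 and 14.06 to 16.85, 16.90 and 16.83 (4.02 ± 0.39, adjusted p = 2.43e-05; 3.18 ± 0.23, 1.40e-05). Fads2, the first desaturase of polyunsaturated fatty acids, rose from 5.22, 5.42, 6.16 and 5.85 to 10.30, 9.70 and 9.65 (4.22 ± 0.30, adjusted p = 6.22e-06; 3.88 ± 0.34, 4.68e-05). Its partner Fads1 rose by 2.63 and 2.74 and the elongase Elovl6 by 1.81 and 1.91. The LPS arrays lay close together in these desaturases and above all unstimulated arrays. Acaca, which commits acetyl-CoA to the pathway, rose by 1.64 and 1.27. Fasn, the synthase itself, and Acly, which supplies acetyl-CoA, were called only against all 4 arrays (1.19 and 1.26, against 0.91 and 0.87 with adjusted p = 0.165 and 0.15).

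Supply of amino acids changed at selected carriers. Of 18 transporter genes, 9 were called higher against all 4 arrays, 8 against replicates 3 and 4 and 7 on both, with 0 lower and medians of 0.76 and 0.84; LPS replicate 1 alone gave 6. The pair that forms the large neutral amino acid carrier rose together. Slc7a5 (LAT1) went from 8.53, 8.04, 8.59 and 8.78 to 11.45, 12.48 and 12.72 (3.74 ± 0.29, adjusted p = 6.43e-06; 3.53 ± 0.34, 9.3e-05). Slc3a2, its heavy chain CD98, went from 11.13, 11.59, 10.75 and 10.90 to 14.17, 13.48 and 13.48 (2.61 ± 0.28, adjusted p = 5.95e-05; 2.88 ± 0.32, 0.000208). Both were apart from the unstimulated arrays, but LPS replicate 1 was the lowest LPS array for Slc7a5 and the highest for Slc3a2. The cationic carriers Slc7a1 (1.71 and 1.35), Slc7a3 (2.86 and 2.77) and Slc7a7 (1.87 and 2.07) rose too. The glutamine carriers Slc1a5, Slc38a1 and Slc38a2 were not called on either baseline.

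Enzymes that use amino acids followed. Of 31 genes of serine, one-carbon and nucleotide synthesis, 13 were higher and 1 lower against all 4 arrays and 10 and 0 against replicates 3 and 4, those 10 on both; only 2 were called with LPS replicate 1 alone. Psat1, the transaminase of serine synthesis, rose from 6.49, 6.93, 7.15 and 7.08 to 9.27, 9.81 and 10.12 (2.82 ± 0.27, adjusted p = 2.41e-05; 2.62 ± 0.32, 0.000379). Phgdh, the first enzyme of that route, had 8.55, 8.71, 9.37 and 9.58 without LPS and 10.21, 11.60 and 11.66 with it, and its call against replicates 3 and 4 was lost without 1 array (up to 0.191). Mthfd2, a mitochondrial folate enzyme, rose by 2.02 and 1.90. Of 21 aminoacyl-tRNA synthetases, which charge tRNAs, 15 rose against all 4 arrays and 12 on both baselines with 0 lower (medians 1.10 and 0.99), and 5 with LPS replicate 1 alone. Nars, for asparagine, read 12.83, 13.41, 12.87 and 13.11 without LPS and 14.61, 15.46 and 15.49 with it, and Gars, for glycine, 11.36, 11.44, 11.29 and 11.21 and then 12.40, 13.75 and 13.66. LPS replicate 1 was the lowest LPS array in Psat1, Phgdh, Nars and Gars. In contrast, of 42 genes of ribosome biogenesis 4 were called higher against all 4 arrays, and 1 higher and 1 lower against replicates 3 and 4, shares near the background of all genes given above.

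In glycolysis LPS replicate 1 stood above the other LPS arrays. Of 27 genes, 13 were called higher and 1 lower against all 4 arrays, and 9 and 1 against replicates 3 and 4, all of those on both (medians 0.95 and 0.94). LPS replicate 1 alone gave 9 higher and 0 lower. Tpi1, triosephosphate isomerase, had 9.50, 9.92, 10.68 and 10.52 without LPS, 15.06 in LPS replicate 1 and 11.78 and 11.80 in LPS replicates 2 and 3. Pgk1, phosphoglycerate kinase, had 8.64, 8.46, 8.92 and 8.93, then 13.30 against 10.62 and 10.33. Pkm, pyruvate kinase, had 10.38, 10.58, 11.12 and 11.11, then 15.09 against 12.01 and 12.35. All 3 LPS arrays lay above the unstimulated ones, with replicate 1 well above its partners. The calls against all 4 arrays (Tpi1 2.73 ± 0.72, adjusted p = 0.0258; Pkm 2.35 ± 0.61, 0.0251) were lost without unstimulated replicate 1 or 2 or LPS replicate 1 (up to 0.0798 and 0.0689), and neither gene was called against replicates 3 and 4 (0.128 and 0.118). Aldoc, an aldolase, rose on both baselines from 5.56, 5.27, 5.30 and 5.73 to 11.72, 9.52 and 9.85, though without unstimulated replicate 3 the second call was lost (adjusted p = 0.0507). The 1 member that fell was the glucose carrier Slc2a3 (-0.81 and -1.01). Among 24 hypoxia genes 5 were called higher against all 4 arrays and 3 on both. Vegfa, the vascular growth factor, led them with 5.82, 5.69, 5.75 and 5.50 and then 9.59, 8.24 and 9.16 (3.31 ± 0.24, adjusted p = 6.22e-06; 3.37 ± 0.31, 5.81e-05).

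Genes of cell division rose, in numbers that depended on the baseline. Of 48 mitosis genes 41 were called higher against all 4 arrays, 21 against replicates 3 and 4, the 21 on both, and 31 with LPS replicate 1 alone (medians 1.83 and 1.30; 0 lower). Of 39 genes of DNA replication 24 were called higher against all 4 arrays and 9 against replicates 3 and 4, with 1 lower, Pold1, a catalytic subunit of DNA polymerase delta (-1.77, adjusted p = 0.031). The Pold1 call was lost with 1 of several arrays left out (up to 0.187). Mki67, the proliferation marker Ki-67, read 11.92, 11.80, 14.11 and 13.47 without LPS and 16.32, 15.07 and 15.35 with it (2.75, adjusted p = 0.00511; 1.79, 0.0352). Nusap1, a spindle protein, rose from 8.01, 7.57, 8.74 and 8.40 to 11.68, 11.05 and 11.34 (3.18 ± 0.29, adjusted p = 1.72e-05; 2.79 ± 0.30, 0.000159). In both genes unstimulated replicates 3 and 4 lay above replicates 1 and 2, so the change was smaller against them. The calls of Cdk1, the mitotic kinase (2.93 and 2.00), Ccna2, cyclin A (2.48 and 1.95), Rrm2, a ribonucleotide reductase subunit (2.58 and 1.65), and Cdc6, a licensing factor (1.84 and 1.72), were lost against replicates 3 and 4 with 1 array left out (highest adjusted p from 0.0973 to 0.296). Cdkn1a, the CDK inhibitor p21, rose with the division genes, from 6.03, 5.42, 4.78 and 6.02 to 9.49, 9.54 and 9.68 (4.01 ± 0.44, adjusted p = 7.32e-05; 4.17 ± 0.54, 0.000611).

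Around the cell cycle, Ccnd2, the cyclin D of activated B cells, rose from 12.34, 11.62, 12.12 and 11.47 to 14.97, 15.22 and 15.30 (3.28 ± 0.27, adjusted p = 8.97e-06; 3.37 ± 0.32, 7.86e-05). Pdcd4, an inhibitor of translation, fell from 14.46, 14.67, 13.14 and 14.17 to 11.02, 11.45 and 11.43, and the stress-induced Sesn1 from 11.08, 10.95, 11.44 and 11.23 to 8.76, 9.30 and 9.44. Both belong to the 26 CDK inhibitors and quiescence genes, of which 1 (Cdkn1a) was higher and 7 lower against all 4 arrays, and 1 and 4 against replicates 3 and 4. Of 16 genes of the MYC network 3 rose on both baselines, namely Ccnd2 and the polyamine enzymes Srm (2.38 and 2.07) and Odc1 (1.76 and 1.41). The Odc1 call against replicates 3 and 4 was lost without 1 array (up to 0.173). Myc itself was not called (0.35 and 0.75). Replication-dependent histones showed LPS replicate 1 apart: H1f1 had levels of 6.92, 6.6, 6.68 and 6.72 without LPS, 10.78 in LPS replicate 1 and 6.78 and 6.99 in LPS replicates 2 and 3. Of 22 histones 4 were called higher against all 4 arrays, 2 against replicates 3 and 4, and 8 with LPS replicate 1 alone. In the BCL2 family of 19, the survival gene Bcl2l1 (1.44 and 1.76) and the pro-death genes Bcl2l11 (BIM; 2.09 and 2.46) and Bbc3 (PUMA; 0.95 and 1.09) rose on both baselines. The calls of Bcl2l11 and Bbc3 against replicates 3 and 4 were lost when 1 of these arrays was left out (0.123 and 0.0929).

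Interferon response genes rose in 21 of 33 members against all 4 arrays, in 17 against replicates 3 and 4 and in 16 on both, with 0 lower and medians of 1.48 on each. Here LPS replicate 1 was the low array: it gave 3 calls alone, with a median of 0.89. Ifih1, the RNA sensor MDA5, read 7.52, 7.22, 6.00 and 6.27 without LPS and 9.31, 10.43 and 9.98 with it (3.16 ± 0.39, adjusted p = 0.000187; 3.78 ± 0.38, 0.00011). Usp18, which removes ISG15 and dampens the interferon receptor, read 8.38, 8.49, 6.66 and 8.42 and then 10.23, 13.13 and 13.42. Oas1a, a synthetase that activates RNase L, read 8.96, 9.12, 7.55 and 9.24 and then 10.90, 12.04 and 12.31. All 3 genes were above every unstimulated array in each LPS array, in Usp18 by the rule of choice, and lowest in LPS replicate 1. Unstimulated replicate 3, the male, was lowest in Usp18 and Oas1a, and without it neither was called against replicate 4 (adjusted p = 0.0699 and 0.118). LPS replicates 2 and 3 are the LPS arrays with the higher T cell and monocyte marker means, and the part of those cells in the interferon genes was not tested. Bst2 (tetherin) was nearly even across the LPS arrays, with 11.49, 10.61, 10.28 and 10.80 without LPS and 13.21, 13 and 13.06 with it. Cxcl10, an interferon-induced chemokine, was not called (-0.07 and 0.17).

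The interferon-stimulated response element was searched in the same promoter windows as GAAA, 2 bases of any kind, GAAA. It was found in 12 of 23 list genes with a window (52.2%), against 1079 of all genes (3.99%). Those called higher on both baselines were Ifih1, Oas1a, Oas3, Stat2, Bst2 and Trim30a, whereas Ifit1, Ifit3, Ddx58, Isg15, Rsad2 and Cxcl10 hold it and were called on neither. The stretches of Ifih1 and Oas1a are shown with the element in capitals; in Oas1a a pair of matches overlap.
Ifih1, chr2:62646206-62646273, minus strand: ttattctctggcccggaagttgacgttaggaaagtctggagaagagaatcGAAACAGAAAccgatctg
Oas1a, chr5:120907480-120907595, minus strand: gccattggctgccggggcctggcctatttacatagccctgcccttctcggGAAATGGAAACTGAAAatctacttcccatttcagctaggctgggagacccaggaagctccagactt

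Secreted mediators changed in a few members. Of 33 cytokines and chemokines, 4 were higher and 3 lower against all 4 arrays, and 5 and 3 against replicates 3 and 4. Il10, the anti-inflammatory cytokine that activated B cells secrete, rose from 3.86, 5.26, 4.07 and 4.70 to 10.56, 8.50 and 8.08 (4.58 ± 0.76, adjusted p = 0.00147; 4.66 ± 0.93, 0.00782). Il6 rose from 4.27, 3.45, 3.85 and 3.49 to 5.10, 7.45 and 7.80 (3.01 ± 0.55, adjusted p = 0.00272; 3.11 ± 0.67, 0.0122), and its value in LPS replicate 1 lay at the level of the median gene. The order of the LPS arrays was thus opposite in Il10 and Il6, and both calls against replicates 3 and 4 were lost without 1 of these arrays (0.0833 and 0.117). Ltb, lymphotoxin beta, fell from 15.00, 14.95, 15.31 and 15.47 to 11.77, 12.18 and 12.60. Its call against replicates 3 and 4 was also lost without either of them (up to 0.0769). Among 19 antimicrobial and acute phase genes, Saa3 rose by 7.64 ± 0.85 (adjusted p = 8.26e-05) and 7.83 ± 1.08 (0.00088), from 5.04, 5.31, 4.33 and 5.24 to 11.19, 13.33 and 13.32, while Saa1 was not called (0.24 and 0.21). Lyz2, the lysozyme of macrophages, read 13.88, 14.55, 5.20 and 6.17 without LPS and 4.95, 10.56 and 10.56 with it, so its level was high in the 4 arrays with raised T cell markers and low in the other 3.

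Genes of the resting B cell fell in part. Of 27 surface receptors 10 were called lower on each baseline and 8 on both, while 4 and 2 were called higher (medians -0.94 and -1.42). Cr2, complement receptor 2, fell from 16.01, 16.22, 16.25 and 17.16 to 12.79, 13.62 and 13.48 (-3.11, adjusted p = 2.5e-05; -3.41, 0.000116). Cd55, a complement inhibitor, fell from 15.65, 15.31, 16.33 and 15.78 to 12.59, 11.37 and 11.37. Fcer2a, the low affinity IgE receptor CD23, had 13.93, 13.59, 15.97 and 15.11 and then 10.39, 10.33 and 10.70. In Cd55 and Fcer2a the groups did not overlap by the rule of choice, and in Cr2 they did not overlap either. The SE of Fcer2a was large (-4.18 ± 1.09, adjusted p = 0.025; -5.07 ± 1.30, 0.0276), and its call was lost on both baselines when 1 of several arrays was left out (up to 0.0828 and 0.182). This SE pools all groups, and WT LPS arrays ran from 5.86 to 12.29, against 10.33 to 10.70 in the knockout. Fcmr, the IgM receptor, had 16.40, 15.99, 17.20 and 17.05 and then 10.64 in LPS replicate 1 against 14.54 and 14.29. Of the 2 baselines, it was called only against all 4 arrays (adjusted p = 0.0303, and 0.0525 against replicates 3 and 4). That call was lost with 1 array left out (up to 0.119). With LPS replicate 1 alone against replicates 3 and 4 its change was -6.48. The costimulatory ligand Cd80 (2.15 and 2.66) and the inhibitory Fc receptor Fcgr2b (2.28 and 1.63) rose on both baselines.

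Of 23 transcription factors of B cell identity, 6 were lower and 1 higher on each baseline and 5 and 1 on both (medians -0.67 and -1.08). Ets1, which restrains plasma cell formation, fell from 13.64, 13.81, 13.90 and 14.21 to 11.89, 11.61 and 11.70 (-2.16 ± 0.22, adjusted p = 3.22e-05; -2.32 ± 0.26, 0.000221). Nfatc1, a factor of antigen receptor signalling, fell from 10.82, 10.77, 10.95 and 11.18 to 8.79, 9.05 and 9.81, and Foxp1 by 0.90 and 1.08 on the log2 scale. Bcl6, the germinal centre repressor, had 7.60, 8.0, 9.48 and 8.96 and then 6.64, 6.85 and 7.46, and its calls (-1.53 and -2.24) were lost with 1 array left out (up to 0.112 and 0.053). Pax5, which keeps B cell identity and is a target of Blimp-1 repression, was not called. Its levels were 13.05, 13.13, 14.69 and 14.32 without LPS and 13.50, 12.57 and 12.84 with it, so LPS replicate 1 lay above unstimulated replicates 1 and 2 (-0.83 ± 0.79, adjusted p = 0.601; -1.53 ± 0.93, 0.36). Bach2, a repressor of Prdm1, was not called either (-0.34 and -0.66; adjusted p = 0.875 and 0.784). The pooled spread of these genes includes WT LPS arrays of 8.09 to 12.68 in Pax5 and 6.82 to 11.94 in Bach2. Knockout LPS arrays ran from 12.57 to 13.50 and from 11.07 to 12.46. The member that rose was E2f2, a factor of the cell cycle (1.55 and 1.16).

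Some genes of antigen receptor signalling fell. Of 23 genes of receptor signalling 3 were lower against all 4 arrays and 8 against replicates 3 and 4. Blk, a Src family kinase, fell from 12.62, 12.90, 13.63 and 13.89 to 11.66, 11.41 and 11.52, and Dok3, an inhibitory adaptor, from 12.83, 12.76, 13.88 and 13.53 to 12.24, 11.65 and 12.19. The Blk call was lost without LPS replicate 2 on the first baseline (0.0563) and without replicate 3 or 4 on the second (0.0875). Of 16 genes of MHC class II presentation, 1 was higher and 1 lower against all 4 arrays, and 1 and 2 against replicates 3 and 4, with medians of -0.94 and -1.46; against all 4 arrays these counts are near the shares over all genes (6.36% and 3.99%). H2-Oa, a modulator of peptide loading, was lower on both (-2.87 and -3.77), calls lost with 1 array left out (up to 0.112 and 0.159). The protease Lgmn rose (0.75 and 0.89), and its call on the second baseline was lost without unstimulated replicate 3 (0.129). Of 22 genes of NF-kB, 4 were higher and 1 lower against all 4 arrays, and 3 and 3 against replicates 3 and 4 (medians -0.04 and -0.41). The feedback inhibitors Nfkbia (12.32, 11.99, 11.25 and 11.06, then 14.10, 13.42 and 13.62) and Tnfaip3 (1.57 and 1.62) rose. The kinase Ikbkb fell (-1.51 and -2.01). Birc3 was called lower only against replicates 3 and 4 (-1.73, adjusted p = 0.00751), a call lost without either (up to 0.0795). Without LPS replicate 2 or 3 the Ikbkb call on the first baseline was lost (up to 0.0629), and that of Tnfaip3 on the second with 1 array left out (up to 0.227). Tlr3, the receptor for double-stranded RNA, fell from 8.74, 8.32, 8.33 and 10.14 to 6.17, 7.02 and 6.89, which was not called without unstimulated replicate 4 on the second baseline (0.108). Of 22 genes of the Toll-like receptor pathway 1 was lower against all 4 arrays, again near the share over all genes, and 3 against replicates 3 and 4.

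Some proteasome genes rose. Of 36 proteasome genes 12 were higher against all 4 arrays, and 7 higher and 1 lower against replicates 3 and 4. Psmd8, of the regulatory lid, rose from 11.29, 10.84, 11.24 and 10.84 to 12.98, 12.72 and 13.18 (1.91 ± 0.20, adjusted p = 5.09e-05; 1.92 ± 0.24, 0.000489). Of 40 genes of the respiratory chain and ATP synthase 7 were higher against all 4 arrays, and 3 higher and 1 lower against replicates 3 and 4. Cox5a, of complex IV, rose from 12.86, 11.72, 12.50 and 12.34 to 13.78, 13.66 and 13.61. Of 39 mitochondrial ribosomal proteins 5 were higher and 1 lower against all 4 arrays, and 1 and 2 against replicates 3 and 4. On that second baseline the counts of both mitochondrial lists are near the shares over all genes (5.43% higher and 4.64% lower). Of 19 genes of class switch and hypermutation 3 were higher against all 4 arrays, and 1 higher and 1 lower against replicates 3 and 4. The latter counts are again near the shares over all genes, and the medians of this list were 0.06 and 0.03.

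Several markers of other cells were called on only 1 baseline or changed sign between them. The T cell genes Cd8b1 (15.07, 14.49, 3.86 and 4.14 without LPS; 4.73, 8.69 and 9.24 with it) and Trac (15.26, 14.73, 4.72 and 4.38; 5.32, 8.99 and 9.19) were called higher against replicates 3 and 4 (3.56 and 3.29) and had changes of -1.83 and -1.94 against all 4 arrays. These are the 2 of 15 T cell markers called against replicates 3 and 4. Both calls were lost with 1 of several arrays left out (up to 0.174 and 0.183). With LPS replicate 1 alone their changes were 0.73 and 0.77. Ppbp, a platelet chemokine, had 3.98, 3.96, 8.50 and 9.12 and then 3.66, 3.84 and 3.69. It was one of 4 of 7 platelet markers called lower against replicates 3 and 4 (-5.08 ± 0.84, adjusted p = 0.00263) and not against all 4 arrays. Of the B cell markers, Cd79a, the receptor signalling chain, was called lower against replicates 3 and 4 (-0.91, adjusted p = 0.0124) and not against all 4 arrays (0.08). The Cd79a call was lost without replicate 3 or 4 (up to 0.12). Ly6c2, counted here among the monocyte markers, rose by 4.14 ± 0.47 against replicates 3 and 4, with 12.09 in LPS replicate 1, where T cell and monocyte marker means were near those of replicates 3 and 4.

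The 3 LPS arrays differed in several lists. Against the mean of unstimulated replicates 3 and 4, the mean of the histones was 1.76 higher in LPS replicate 1 and 0.15 and 0.28 higher in LPS replicates 2 and 3. For glycolysis the differences were 1.54 against 0.62 and 0.64, for hypoxia genes 1.43 against 0.44 and 0.67, and for mitosis 1.95 against 0.97 and 0.93. Interferon genes ran the other way, at 1.07 against 1.99 and 2.06, as did antimicrobial genes, at 0.57 against 1.77 and 1.81. LPS replicates 2 and 3 were thus close to each other in all of these lists, and replicate 1 differed in both directions. Antibody-secreting cell genes were nearly level, at 2.13, 1.82 and 1.97. With only 3 arrays, these differences between single arrays have no test.

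**Figure D4:**
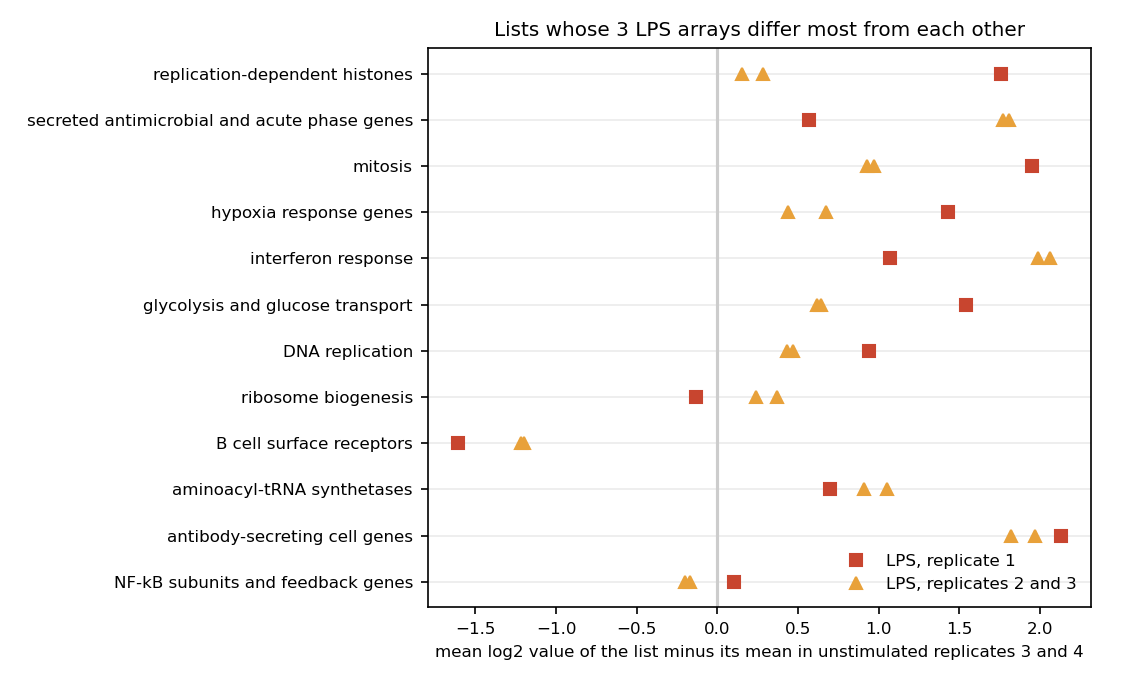
Mean level of 12 gene lists in each LPS array minus their mean in unstimulated replicates 3 and 4, in log2 units; the lists shown are those whose 3 LPS arrays differ most. The red square is LPS replicate 1 and orange triangles are LPS replicates 2 and 3; the square lies to the right of the triangles for histones (1.76) and to their left for interferon genes (1.07).

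The knockout response was compared with that of WT cells through the difference of the 2 changes. It was lower in the knockout for 370 genes (1.18% of those tested) and higher for 60 (0.191%). Per list, 17 of 31 antibody-secreting cell genes, 14 of 39 of the unfolded protein response and 14 of 53 of ER translocation and export were called lower, against 0 of 26 cholesterol genes, 2 of 18 of fatty acid synthesis and 1 of 48 of mitosis. With replicates 3 and 4 as the knockout baseline these counts were 12, 12 and 9, against 0, 2 and 7. The medians of the first 3 lists were 1.88, 1.42 and 0.81 in the knockout and 4.00, 3.26 and 2.44 in WT, while those of cholesterol genes were 2.10 (1.58 against replicates 3 and 4) and 2.34. The median difference of cholesterol genes was -0.28, and -0.74 on the second baseline, against -2.27 and -2.22 for antibody-secreting cell genes. That of mitosis genes was -1.42 and -1.83, near the -1.75 and -1.55 of the unfolded protein response, though fewer of them were called. The medians of mitosis genes were 1.83 and 1.30 in the knockout and 3.05 in WT. Sqle rose by 4.35 in the knockout and 4.83 in WT, with a difference of -0.47 (adjusted p = 0.788; -0.78, 0.586 with replicates 3 and 4), and Scd2 by 4.02 and 4.05 (-0.03, adjusted p = 0.991; -0.87, 0.188). Fkbp11 rose by 3.70 and 8.66 (difference -4.96, adjusted p = 0.00736; -4.74, 0.028) and Slc7a5 by 3.74 and 5.94 (-2.21, adjusted p = 0.0149; -2.41, 0.028). The count of 430 rested on few arrays: it was 248 without unstimulated replicate 1, 109 and 124 without LPS replicate 2 and 3, and 707 without LPS replicate 1. Without the 4 arrays with raised T cell markers limma called 0 genes, with 3078 at an unadjusted p under 0.05. With replicates 3 and 4 as the knockout baseline it was 347.

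**Figure D5:**
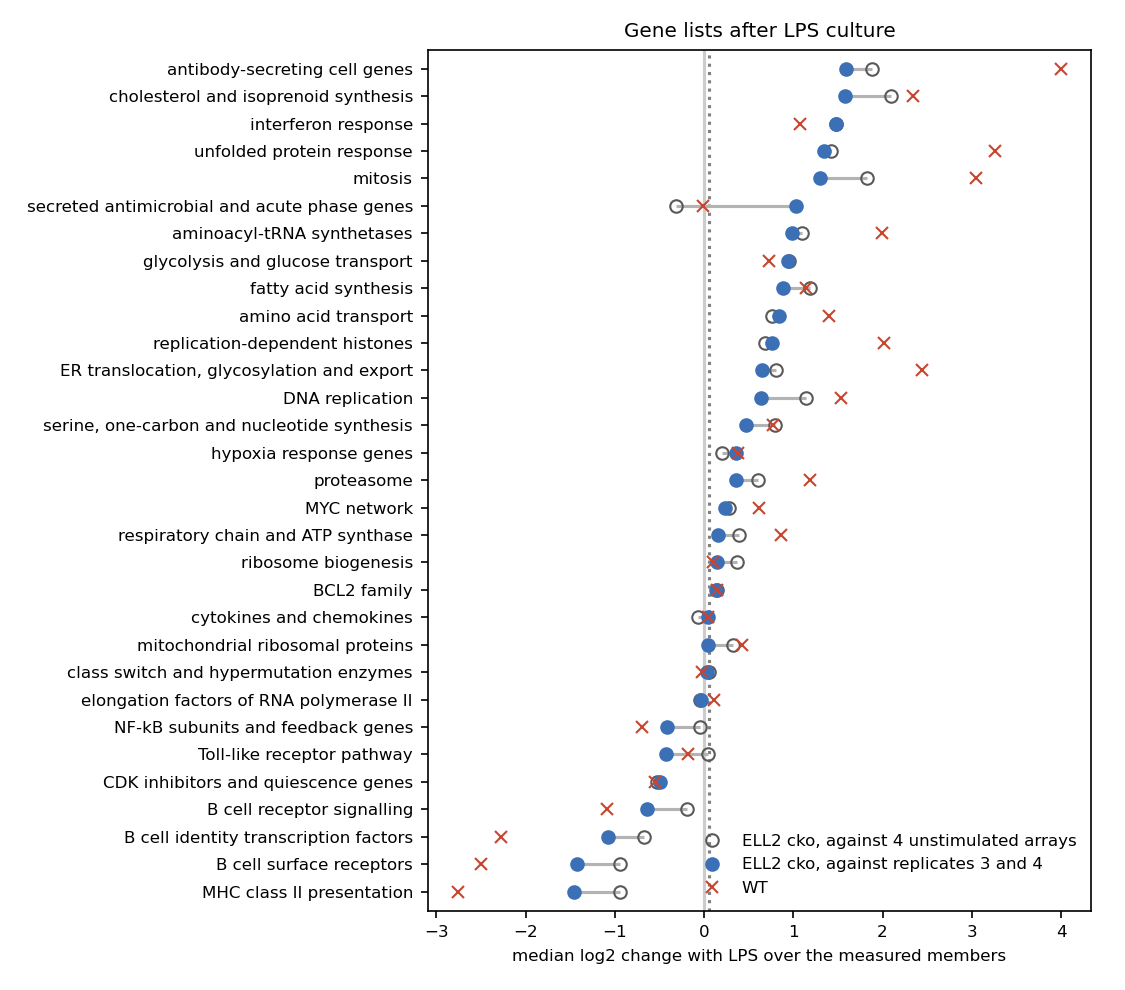
Median log2 change with LPS of each gene list: open points against all 4 unstimulated knockout arrays, filled blue points against replicates 3 and 4, red crosses in WT; the dotted line is the median of all genes (0.06 against replicates 3 and 4). The crosses lie far to the right of the points for antibody-secreting cell genes (4.00 against 1.88) and less far for cholesterol genes (2.34 against 2.10 and 1.58).

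Ell2 itself rose in the knockout cells, from 10.38, 9.78, 10.75 and 11.17 to 14.15, 14.16 and 14.14 (3.63 ± 0.29, adjusted p = 7.88e-06; 3.19 ± 0.28, 3.97e-05). The value is a median over 15 exon regions, and the deleted part may lie outside most of them, so it does not check the labels. Of 25 Ell2 rows tested, 6 departed from the gene against all 4 arrays. Among them, exon region PSR1300005919.mm.1 read 8.98, 7.96, 10.06 and 9.35 without LPS and 11.38, 7.97 and 7.87 with it. Relative to the gene its change was -3.64 ± 0.64 (adjusted p = 0.0104; -3.82 ± 0.81, 0.0339 against replicates 3 and 4). In WT cells the region read 12.91 to 13.13 without LPS and 17.13 to 18.56 with it, above every knockout array. Junction JUC1300003129.mm.1 read 7.25 to 8.58 without LPS and 7.06 to 9.65 with it (-3.31 ± 0.57, adjusted p = 0.00957; -2.48 ± 0.59, 0.051), and region PSR1300005917.mm.1 rose by less than the gene (-1.98 ± 0.28, 0.0028; -1.79 ± 0.32, 0.0179). LPS replicate 1 was higher in region PSR1300005919.mm.1 than LPS replicates 2 and 3, at equal levels of the gene. The regions numbered before and after it were higher with LPS, from 13.59 to 14.00 up to 15.83 to 16.41 and from 9.23 to 10.38 up to 13.88 to 14.16. Of 30 elongation factors of RNA polymerase II, 2 were called higher and 3 lower on both baselines (medians -0.04 and -0.03). The shares over all genes were 4.14% and 2.54%, and the higher count is near its share. The 2 that rose were Ell2 and Eaf2, a partner of ELL proteins. Eaf2 went from 6.56, 7.08, 8.17 and 7.92 to 10.59, 11.73 and 11.97 (4.00 ± 0.59, adjusted p = 0.000588; 3.39 ± 0.67, 0.00723), a call lost without replicate 3 or 4 on the second baseline (up to 0.0816). Ell3, another member of the ELL family, fell from 6.32, 6.93, 6.94 and 7.40 to 5.10, 5.23 and 4.92 (-1.82 ± 0.20, adjusted p = 8.63e-05; -2.09 ± 0.19, 5.51e-05), down to the median gene. Aff4 (-0.57 and -0.67) and Ccnt2 (-0.83 and -1.04), both parts of the super elongation complex or its kinase, were also lower on both.

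Rows that departed from their own gene were tested on 277263 exon region and junction rows of 10818 genes, as the row minus the median of its gene. Against all 4 arrays 5493 rows were called (1.98%), 3038 higher and 2455 lower, in 2611 genes, and 2826 of them in 1461 genes on both baselines. The count was 1737 and 1824 without LPS replicate 2 and 3, 3142 without unstimulated replicate 4 and 8456 without LPS replicate 1. Over the called rows the median absolute change of the row's gene was 0.98, against 0.40 over all rows. A gene counts here once for each of its rows. In addition, 579 rows in 423 genes were called on both baselines where the gene changed by under 0.5. The smallest adjusted p belonged to Fdps, where row PSR0300017840.mm.1 stayed at 6.24 to 6.75 without LPS and 6.59 to 7.35 with it while the gene rose (-5.10 ± 0.27, adjusted p = 1.57e-06). As this row was low and moved little, its row minus gene value mostly follows the gene. Row PSR0X00017048.mm.1 of Slc7a3 rose beyond its gene, from 5.58, 4.72, 5.97 and 5.29 to 13.44, 14.03 and 13.96 (5.55 ± 0.28, adjusted p = 1.57e-06). Alpl, alkaline phosphatase, had a row, PSR0400031441.mm.1, at 8.35, 9.14, 9.27 and 9.96 and then 14.66, 13.69 and 13.62, while the gene went from 5.99 to 6.6 up to 6.74 to 7.64 (4.07 ± 0.32, adjusted p = 8.27e-05). Junction JUC0400014677.mm.1 of Mfsd2a, a lysophospholipid carrier, read 5.38 to 6.69 without LPS and 4.28 to 4.88 with it, near or below the median gene, while the gene rose from 4.84 to 6.32 up to 8.91 to 9.99; at such levels the row minus gene value (-5.18 ± 0.34, adjusted p = 1.65e-05) mostly follows the gene. Junction JUC1200006184.mm.1 of Pik3cg, a PI3 kinase, was higher relative to its gene (3.19 ± 0.25, adjusted p = 7.8e-05). Of Ighm, whose secreted and membrane forms share most exons, 0 of 20 rows were called by limma, but its gene values of 19.38 to 19.85 lie at the top of the range of all values (19.93), where a change could not be read.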

How the data were processed

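RNA of 7 ELL2 cko arrays was compared within a limma model of all 15 arrays. Per the labels, the deposited log2 values were made by SST RMA (a signal space transformation with RMA) in the Affymetrix Expression Console, both also in the submitters' processing notes; their versions are not given in the sources used here. On this account the authors' software corrected the background, normalized between arrays and summarised probes; nothing was done again here. Depth has no meaning for arrays, and their number limits the precision. Values ran from 1.74 to 19.93, and 23 background control rows had array medians of 3.02 to 3.43.

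Of 725678 rows, 580167 carry 1 gene symbol, 18694 several and 126817 none; the last 2 kinds were left out. The level of a gene is the median of its exon regions (338822 rows, 31350 genes, a median of 6 regions per gene and 1 in 7643). Through RefSeq synonyms 1493 symbols were updated. Overlapping, antisense and near-identical genes can share probes, which was not tested. All 15 columns matched a sample and 0 did not.

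Group means were fitted with lmFit and eBayes (limma 3.58.1, R 4.3.3), two-sided, with Benjamini-Hochberg adjustment over all genes; no filter on level was used. The second comparison used unstimulated replicates 3 and 4 as baseline. High T cell markers means a marker mean over 1 log2 unit above the WT arrays without LPS; without these arrays 1 LPS array is left, which is assumed to vary like the other groups. A row within a gene was tested as its value minus the median of its gene, in genes with at least 3 kept rows. Promoter windows are those of RefSeq. Alternatives were centring, quantile normalization, trend and robust settings, array weights, a size threshold, a filter on dim genes, the mean of exon regions, fewer arrays, each array left out, and the replicate number as a block.

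Members, gene lists and tests were chosen with earlier results of these data known. Named by rule were 11 fixed genes; the 12 largest rises and 12 largest falls without overlap and at least 1 log2 unit above the median gene in the higher group; up to 4 called members per list; and 5 genes of the row test with Ighm and Ell2. Predicted genes, small RNA genes, variable segments and sex-linked genes were left out of the largest changes. Where a pathway is walked through, further members were chosen after their values were seen. Of 1058 list members 984 were measured.

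On simulated data with 200 of 31350 genes changed by 1 and 2 log2 units, 54.5% and 94.5% were recovered with 6 and 12 false calls against all 4 arrays, and 12% and 90% with 1 and 9 against replicates 3 and 4. Of changes of 0.5, 0% were recovered on either baseline. Of 200 rows changed by 2 units, 91.5% were recovered with 5 false calls. The simulated noise was independent between arrays and equal across groups, and the same for all rows. It held no shift shared by unstimulated replicates 1 and 2, so these rates need not hold for the real arrays.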

Additional observations from a re-analysis of the deposited data

Results flagged for a closer look

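In 7 of the 153 named genes 1 of the 4 unstimulated ELL2 cko arrays lay far from the others by Dixon's test, which chance gives in about 1 in 20 groups. Replicate 3 was low in Usp18 (6.66) and Oas1a (7.55), both interferon response genes. Replicate 4 was high in Il9r (12.12), Flt3 (7.05) and Oasl1 (8.32), the last another interferon response gene. Replicate 2 was low in the proteasome subunit Psmb5 (12.70), and replicate 1 in the mismatch repair gene Msh6 (7.46).

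In 18 named genes the LPS change differed between knockout and WT cells by the interaction term of limma, and in all 18 it was lower in the knockout. Among genes of antibody secretion and the ER the difference of log2 changes (ELL2 cko minus WT) was -4.96 in Fkbp11, -3.59 in Derl3, -3.30 in Sec24d, -3.13 in Creld2, -2.62 in Xbp1, -2.18 in Rpn1 and -2.08 in Prdm1. Among amino acid carriers it was -2.36 in Slc3a2, -2.21 in Slc7a5, -2.11 in Slc7a3 and -1.77 in Slc7a7. It was -2.08 in the desaturase Fads2 and -1.47 in the elongase Elovl6. In the respiratory chain it was -2.54 in Uqcrq and -2.40 in Ndufa1. The remaining values were -2.01 in Vegfa, -1.68 in Bcl2l1 and -1.18 in Lgmn. With unstimulated replicates 3 and 4 as the knockout baseline 12 of the 18 were called. The other 6 were Prdm1 (-2.01, adjusted p = 0.0911), Sec24d (-3.07, 0.0869), Bcl2l1 (-1.36, 0.0757), Rpn1 (-2.08, 0.0754), Lgmn (-1.05, 0.0576) and Uqcrq (-2.35, 0.0549). None of the 18 differences was called when the 4 arrays with raised T cell markers were left out, since limma then called 0 genes in all (3078 at an unadjusted p under 0.05).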

How the results depend on the processing

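Against all 4 unstimulated arrays, 3244 genes were called as reported, 2159 in a fit of only ELL2 cko arrays, 1855 with a change of at least 1 log2 unit, 1306 without the arrays with high T cell markers, and 1930 to 3147 with each array left out. Against replicates 3 and 4, 3157 were called as reported, 1995 with at least 1 log2 unit, 5638 with array weights, 1306 without the arrays with high T cell markers and 818 to 3955 with each array left out. The difference of responses gave 430 as reported, 905 with array weights, 276 with sex as a covariate, 0 without the arrays with high T cell markers (3078 at an unadjusted p under 0.05 by limma) and 109 to 707 with each array left out. Rows within genes gave 5493 as reported and 1737 to 8456 with each array left out. Higher calls against replicates 3 and 4 were 53.9% as deposited, 43.2% with centred arrays and 46.4% with quantile normalization. The change against all 4 arrays turned in sign against replicates 3 and 4 in Cd79a (-0.91), Cd8b1 (3.56), Trac (3.29), Fcgr3 (1.22), Cxcr2 (0.78) and Mmp8 (0.60), and without the arrays with high T cell markers in Cd79a (-1.10), Cd8b1 (0.73), Trac (0.77), Fcgr3 (0.76), Cxcr2 (0.68), Mmp8 (0.52) and Bach2 (0.25), of which Cd79a was called there. The cause was not tested. Of 122 named genes called against all 4 arrays 94 stayed called whichever array was left out, and 70 in the absence of the high T cell arrays; of 134 called against replicates 3 and 4, 67 and 72. Sex as a covariate, and leaving out the high T cell arrays in the comparisons with replicates 3 and 4 and with WT, were chosen after seeing the data.

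The labels number the replicates but do not say whether the numbers pair the samples. Same-numbered LPS and unstimulated arrays deviated from their group means with r of -0.25, 0.227 and -0.194. LPS replicate 1 had r of -0.25 and -0.293 with unstimulated replicates 1 and 2, and 0.306 and 0.265 with 3 and 4. As r follows that split of the unstimulated arrays, it cannot decide whether the numbers pair the samples. With the replicate number as a block, 3009 genes were called against all 4 arrays, 1637 against replicates 3 and 4, 346 for the difference of responses, and 3440 rows within genes. Of the named genes 114 of 122 and 100 of 134 kept their call.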
